A study of Mus musculus with 17 samples.

Results

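Astro is the class of hypothalamic cells to which the authors' deposited cluster names give the name Astro, and it holds 1148 cells. Of these, 1140 could be traced to a single library, among 14276 traced cells of all classes. The other 8, of 161 in all classes, carry a barcode found in more than 1 library of their batch and group. The study measured the RNA of single cells of the dissected mouse hypothalamus by Drop-seq, a droplet method in which beads mark polyA RNA by cell and by molecule, so that each captured molecule is counted once as a UMI. It compared 5 mice fed normally with 3 mice kept without food for 24 hours. All mice, in both groups, were B6D2F1 hybrids (C57BL6 mother, DBA2 father), and the labels name no further treatment, allele, age or sex. The 17 libraries fall into 5 batches. Batch 1 holds normal replicate 3 and food-deprived replicate 1, batch 2 holds normal replicate 4 and food-deprived replicate 2, and the other batches hold mice of 1 group only. The mouse is the replicate, and its libraries were summed.

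Astrocytes are glial cells that take up glutamate and potassium released by neurons, store glycogen, and cover blood vessels with endfeet rich in the water channel Aqp4. They are joined into networks by gap junctions of Gja1 (connexin 43) and Gjb6 (connexin 30). In the hypothalamus they are known as a main source of angiotensinogen, the precursor of the angiotensin peptides, which the gene Agt encodes.

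Astro cells numbered 241, 98 and 46 in normal replicates 3 to 5 and 296, 330 and 115 in food-deprived replicates 1 to 3. Normal replicates 1 and 2 gave 6 and 8 cells, under the minimum of 20, so gene tests rest on 3 mice against 3 and on 1126 cells. Their summed UMIs ran from 79861 in normal replicate 5 to 541068 in food-deprived replicate 2. The median Astro cell held 1175 to 1474 UMIs in these 6 mice, less than the median annotated cell of the same mice (1942 to 2389 UMIs). A single cell of normal replicate 3 held 34401 UMIs, so deep cells carry much weight in sums. Libraries were of 2 kinds, 9 with Gapdh under 50 CPM and 8 with more. Both groups hold both kinds, but all cells of normal replicate 5 and food-deprived replicate 3 come from the second kind and all of normal replicate 3 from the first.

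All 5 markers were abundant in every mouse and higher in Astro than in any other class. Levels here are CPM, a gene's UMIs scaled to 1000000 Astro UMIs of the mouse, with the mean ± SD over the 6 mice. Agt counted 2936, 3719 and 2304 CPM in normal replicates 3 to 5, while food-deprived replicates 1 to 3 had 3657, 5402 and 3601 CPM. No other class came near this level, since the highest, Ependy (ependymal cells that line the ventricle), held 64.2 CPM. The glutamate transporter Slc1a2 (GLT-1) stood at 3395 ± 491 CPM and reached 820.7 CPM in the next class, Tany (tanycytes, the glia of the third ventricle's floor). Slc1a3 (GLAST), the second glutamate transporter, stood at 3245 ± 633 CPM, with 1185 CPM in Tany. Both transporters were therefore shared in part with tanycytes, whereas Agt was not. Gja1 stood at 2493 ± 473 CPM and in Ependy at 816.8 CPM. Aqp4 stood at 1269 ± 604 CPM and in Ependy at 491 CPM, and its SD is the widest of the 5 relative to its mean. Since Astro cells were clustered by expression, these contrasts with other classes are descriptions with no test.

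**Figure D1:**
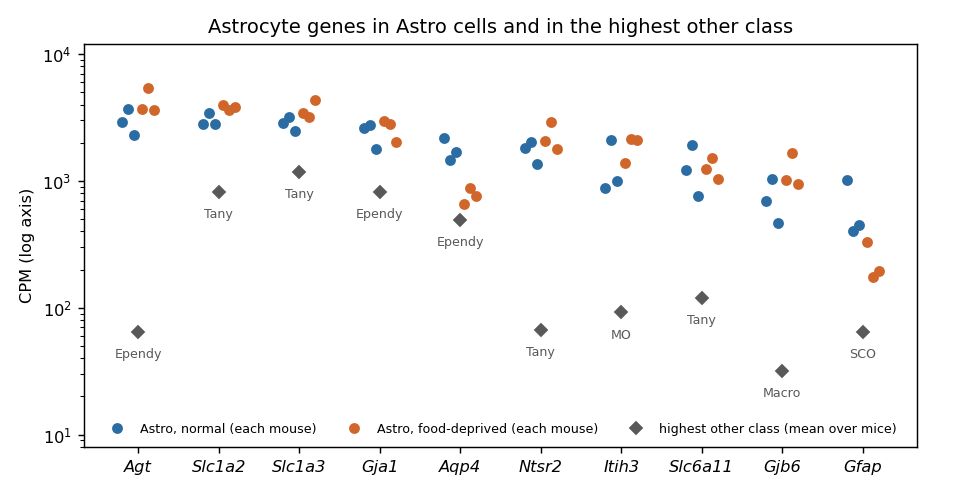
CPM (log axis) of 10 genes in Astro cells of each normal (blue) and food-deprived (orange) mouse, with the mean of the highest other class as a grey diamond and its name below. Agt lies between 2304 and 5402 CPM against 64.2 CPM in Ependy, and the food-deprived mice lie below the normal mice for Aqp4 and Gfap.

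To set aside depth, each cell was also thinned at random to 800 UMIs, which kept all 1126 Astro cells. At that depth 82.3% of Astro cells held an Agt UMI, against 3.30% of Tany, 2.31% of MO (myelinating oligodendrocytes) and 0.78% of OPC (oligodendrocyte precursors). Without thinning, the share in Astro was 88.5% at a median of 1300.5 UMIs per cell, and the median of MO was 2208.5 UMIs. For Aqp4 the thinned share was 45.03% in Astro, 36.5% in Ependy and 0.525% in MO, and the unthinned share in Astro was 59.2%. Gfap, the intermediate filament protein often used to stain astrocytes, was found in 11.01% of Astro cells at 800 UMIs and in 0.263% of MO. Its unthinned share in Astro was 17.85%. Agt thus labelled far more of these cells than Gfap did.

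The most abundant RNAs include those of secreted and lipid-carrying proteins. Apoe, the main lipoprotein of the brain, led with 28530 ± 4855 CPM, followed by the protease inhibitor Cst3 with 22600 ± 3253 CPM and the nuclear RNA Malat1 with 19270 ± 7246 CPM. The metallothionein Mt1 stood at 12890 ± 3156 CPM and the matrix protein Sparcl1 at 12450 ± 2519 CPM. The glycolytic enzyme Aldoc stood at 5549 ± 1332 CPM. Not all of these are particular to astrocytes: Apoe reached 50020 CPM in Macro (macrophages) and Cst3 79860 CPM in Micro (microglia).

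Some genes stood far above every other class. After Agt, whose level was 56.1 times that of the next class, came Gjb6 at 971 ± 402 CPM (30.7 times) and the neurotensin receptor Ntsr2 at 1989 ± 509 CPM (29.5 times). Itih3, a protein that stabilises hyaluronan matrix, stood at 1600 ± 585 CPM and 17.4 times the next class. The GABA transporter Slc6a11 (GAT-3) stood at 1285 ± 405 CPM, 10.8 times its level in Tany. Between these came, among others, Lcat, which esterifies cholesterol, at 237 ± 85.5 CPM, and Fgfr3 at 614 ± 201 CPM. Hsd11b1, which regenerates active glucocorticoid inside cells, was low at 158 ± 74.6 CPM, and Macro held 19.7 CPM.

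Regional genes of astrocytes differed within these cells. A set of 6 genes known from diencephalic astrocytes (Sparc, Agt, Itih3, Slc6a11, Nkain4 and Slc6a9) had means from 291 CPM (Slc6a9) to 6566 CPM (Sparc). Of genes known from cortical astrocytes, the phagocytic bridge protein Mfge8 stood at 1065 ± 317 CPM, while the forebrain factor Lhx2 stood at 13.1 ± 13.3 CPM, an SD as wide as the mean.

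Genes of the list of hormone and metabolic receptors ran from 0 UMIs to 614 ± 201 CPM (Fgfr3). The 22 of that list summed to 1945 ± 208 CPM in Astro, against 2090 CPM in the highest class, Epith (cells of vessels). That sum is not one of receptors alone. The list also holds Irs1, Irs2, Foxo1 and Foxo3, and the binding protein genes Igfbp5 (647 UMIs in Astro) and Igfbp2 (361 UMIs). No UMI of the leptin receptor gene Lepr, of the ghrelin receptor gene Ghsr, of Glp1r (the GLP-1 receptor) or of the FGF21 co-receptor gene Klb was found among 1978161 UMIs of Astro cells, which allows up to 1.52 CPM for each from counting error alone. In the same mice Ghsr gave 74 UMIs in GABA neurons, and Lepr gave 28 UMIs in Epith and 19 in GABA neurons. The insulin receptor gene Insr was present at 33.1 ± 22.9 CPM, the IGF-1 receptor gene Igf1r at 114 ± 27.1 CPM and the glucocorticoid receptor gene Nr3c1 at 202 ± 73.7 CPM. The adiponectin receptor genes Adipor1 and Adipor2 stood at 81.4 ± 11.8 and 74.2 ± 22.6 CPM, the growth hormone receptor gene Ghr at 41.3 ± 14.9 CPM and Fgfr1 at 122 ± 32.3 CPM. In the angiotensin system the prorenin receptor gene Atp6ap2 had 365 UMIs and Agtrap, whose protein binds an angiotensin receptor, had 135, beside 7725 of Agt. The receptor genes Agtr1b and Agtr2 had 0 UMIs, Agtr1a had 2, and the converting enzyme gene Ace had 7.

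Astro cells differed from one another beyond counting noise. For each of 831 genes of at least 200 CPM, the excess or lack of UMIs in each cell was scaled by its Poisson expectation, and pairs of genes were correlated across the cells of 1 mouse (43 to 324 cells of at most 5000 UMIs each). The values are Pearson's r, given as the median and range over 6 mice, and are descriptions without a test, since cells of a mouse share libraries, dissociation and depth. One group of genes went with Agt: Apoe (median r 0.43, 0.264 to 0.441), the tetraspanin gene Cd81 (0.396, 0.325 to 0.473), Ntsr2 (0.367, 0.211 to 0.46), Itih3 (0.366, 0.266 to 0.51), Sparcl1 (0.355, 0.195 to 0.47) and Gjb6 (0.338, 0.249 to 0.407). All of these were positive in each mouse. A separate group went with Gfap, led by the benzodiazepine receptor ligand gene Dbi (0.493, 0.288 to 0.593), S100a6 (0.382, 0.00693 to 0.421), the transcription regulator Id3 (0.359, 0.209 to 0.455) and Aqp4 (0.302, -0.00378 to 0.418). Cells with more Gfap held less of the serine protease Htra1 (-0.22, -0.27 to -0.154) and of the amino acid transporter Slc7a10 (-0.208, -0.271 to -0.162). Agt and Gfap themselves were close to unrelated, with a median r of -0.0432 (-0.172 to 0.205).

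**Figure D2:**
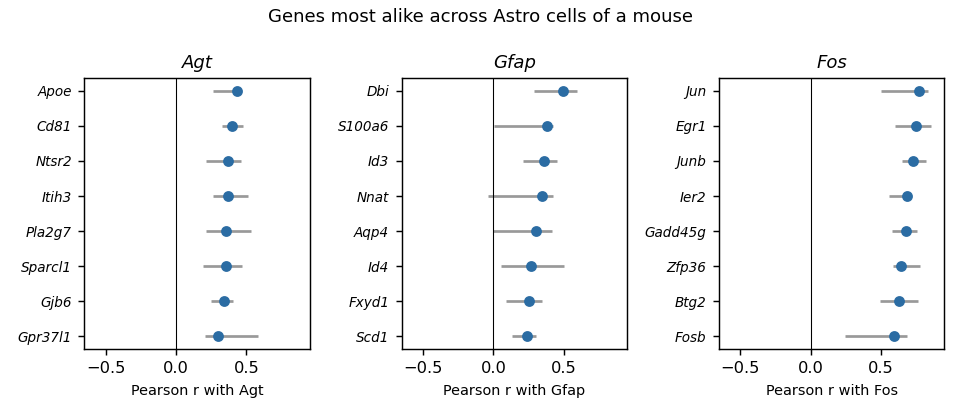
Pearson r across Astro cells of a mouse between Agt, Gfap or Fos and the 8 genes most like each; points are medians and lines ranges over 6 mice. Partners of Fos reach a median r of 0.767, and those of Agt and Gfap stay under 0.5.

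The tightest group was that of immediate early genes, transcription factors and regulators induced within minutes of a stimulus. With Fos went Jun (median r 0.767, 0.5 to 0.836), Egr1 (0.746, 0.599 to 0.854), Junb (0.725, 0.65 to 0.818), Ier2 (0.681, 0.556 to 0.706), Zfp36 (0.643, 0.585 to 0.777) and Btg2 (0.625, 0.49 to 0.76). Cells with more Fos held less Agt (-0.256, -0.4 to -0.163). At 800 UMIs per cell, 46% of Astro cells held a Fos UMI, against 46.7% of Micro, 51.6% of MO, 90.7% of OPC and 95.8% of Tany.

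The 3 promoter stretches printed here show motifs known from such genes, the CArG box bound by serum response factor and the cAMP response element TGACGTCA, both of which read alike on either strand. They are from RefSeq (GRCm38.p6), lie wholly before the gene's start, and have the motif in capitals. Egr2 is at chr10:67537449-67537548 (plus strand), Zfp36 at chr7:28379232-28379331 (minus strand) and Btg2 at chr1:134079269-134079366 (minus strand).
Egr2: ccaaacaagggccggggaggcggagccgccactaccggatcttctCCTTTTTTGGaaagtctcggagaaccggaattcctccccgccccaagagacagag
Zfp36: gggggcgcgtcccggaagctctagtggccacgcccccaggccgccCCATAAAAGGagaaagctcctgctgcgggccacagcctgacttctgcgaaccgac
Btg2: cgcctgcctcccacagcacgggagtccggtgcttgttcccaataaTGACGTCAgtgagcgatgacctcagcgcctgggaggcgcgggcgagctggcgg
Within the window from 250 bases before to 50 after the start, 2 of the 18 immediate early genes matched held a CArG box and 3 held TGACGTCA. Over all 32851 windows the shares were 1.63% and 1.79%. The early genes were counted by gene, with a match in any of its windows, and the background by window, so the units differ. These matches describe letters and not binding.

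RNA of other classes was found in some Astro cells, and it varied by mouse. The 7 markers of myelinating oligodendrocytes summed to 2825 to 16780 CPM in the normal and 1236 to 10530 CPM in the food-deprived mice, against 120800 CPM in MO itself. All 7 were detected, and among the 6 mice tested the sum was lowest in food-deprived replicate 3 and highest in normal replicate 5. The 8 neuronal markers summed to 2012 to 4721 CPM in normal and 1678 to 5718 CPM in food-deprived mice, and none was at 0 in all 6 mice. Endothelial markers summed to 64.3 to 273 CPM in normal and 27.7 to 91.3 CPM in food-deprived mice, and those of oligodendrocyte precursors to 106 to 199 CPM and 27.7 to 62.8 CPM, the latter without overlap. The part of such RNA in the results below was not tested, except where a value without these cells is given.

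Astro cells took a larger share of the annotated cells in the food-deprived mice on average, but the groups overlapped. The share was 4.65%, 5.06%, 9.40%, 5.73% and 2.47% in normal replicates 1 to 5 and 8.13%, 11.3% and 8.94% in food-deprived replicates 1 to 3. Normal replicate 3 lies above 2 of the 3 food-deprived mice. The difference was 3.99 percentage points (5.46 ± 2.52, n = 5, against 9.45 ± 1.63, n = 3), with p = 0.107 in a two-sided exact permutation test. Within batch 1 the food-deprived mouse had 1.26 percentage points fewer, a difference of -1.26, and within batch 2 it had 5.55 more. How many cells of a type survive dissociation also sets such a share.

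Food deprivation gave no gene past the threshold in Astro cells. The fit covered 5837 genes, and edgeR's quasi-likelihood test with Benjamini-Hochberg adjustment called 0 of them at an adjusted p under 0.05 (0.0% of genes tested), every adjusted p being 0.999. At an unadjusted p under 0.05 there were 183 genes (3.14%), 75 higher (1.28%) and 108 lower (1.85%) in the food-deprived mice. DESeq2 called 0 as well, with 80 genes at an unadjusted p under 0.05. With batch as a block edgeR called 0, with 373 such genes. Without the filter on low counts it called 18 of 15076 genes (0.119%), and in the low-Gapdh libraries of batches 1 and 2 with the block 8 of 7028 (0.114%). The 4 higher calls there include the myelin genes Cldn11 and Mobp. With the batch block the 7 myelin markers had a median log2 fold change of 1.67. Their sum was 2825 CPM in the normal and 10530 CPM in the food-deprived mouse of batch 1, and 5187 and 8104 CPM in batch 2. The part of this RNA in those 8 calls was not tested. The values below are therefore descriptions of single genes, and none is called changed. In simulated data of this size, with 1 dispersion for all genes, the fit called 93.1% of genes that differed by 2 on the log2 scale. It called 20.4% of those that differed by 1, so smaller differences would mostly be missed. The simulation left out differences between batches, library kinds and deep cells, so these shares need not hold for the data themselves. Emb at -3.00 ± 0.68 (SE) and Rspo3 at -2.3 ± 0.56 were not called in the data. Fewer cells holding a gene and less of its RNA per cell cannot be told apart in summed counts.

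**Figure D3:**
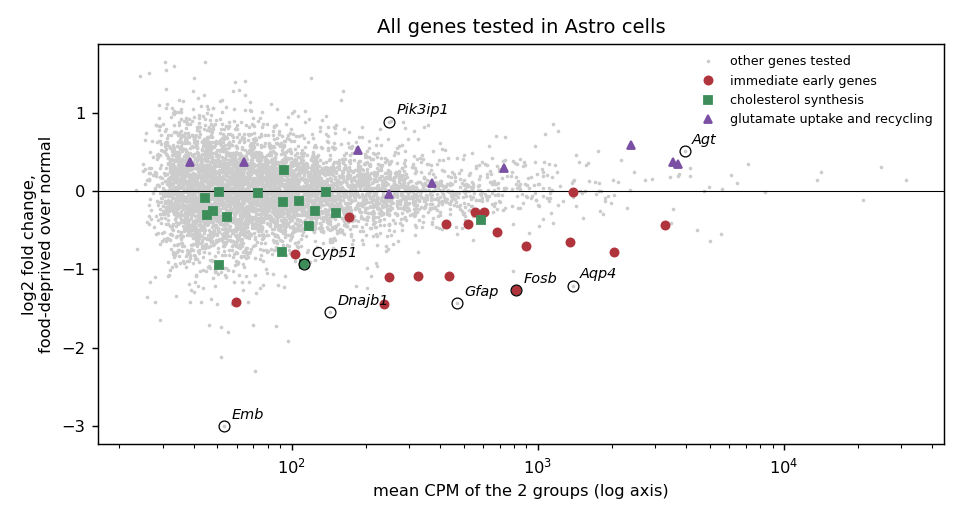
Log2 fold change of food-deprived over normal against mean normalised CPM (log axis) for 5837 genes in Astro cells; coloured points are members of 3 gene lists. The 18 immediate early genes lie below 0, and Aqp4 stands apart from genes of its level at -1.21; no gene passed the threshold.

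Aqp4 was the marker that stood lowest in the food-deprived mice. In normalised CPM, the scale of the fit (UMIs scaled to 1000000 UMIs of tested genes and adjusted by TMM factors), it held 2433, 1583 and 1809 in normal replicates 3 to 5 and 725, 979 and 825 in food-deprived replicates 1 to 3. The lowest normal mouse thus lies above the highest food-deprived mouse. Among all genes tested, 253 (4.33%) had food-deprived values wholly below and 225 (3.85%) wholly above the normal ones. The log2 fold change of Aqp4 was -1.21 ± 0.26 (SE), with an adjusted p of 0.999 in edgeR and of 0.319 with the batch block. It was -1.74 within batch 1 and -0.69 within batch 2. The difference was also present cell by cell: in a second random thinning to 800 UMIs per cell, drawn apart from that of the class shares above, 60.2%, 55.1% and 52.2% of Astro cells of the normal mice held an Aqp4 UMI, against 37.5%, 39.7% and 33.9% in the food-deprived mice. Unthinned shares were 71.8%, 70.4% and 60.9% against 52.7%, 56.1% and 47.8%. Leaving out the cell with most Aqp4 UMIs in each mouse gave 1966, 1255 and 1458 CPM against 632, 827 and 658 CPM. Without cells in which myelin markers took over 2% of UMIs, the fold change kept its direction, as it did in all 19 alternatives (-1.32 to -0.95), and none of them brought it past the threshold (adjusted p 0.131 to 1.0).

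**Figure D4:**
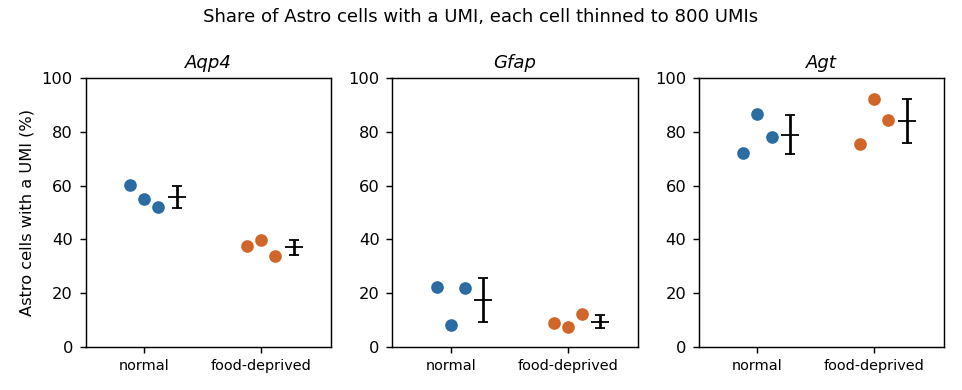
Percent of Astro cells with at least 1 UMI of Aqp4, Gfap or Agt, each cell thinned to 800 UMIs; points are mice, and bars the mean ± SD (n = 3 per group). For Aqp4 the normal mice lie between 52.2% and 60.2% and the food-deprived mice between 33.9% and 39.7%; for Gfap and Agt the groups overlap.

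Gfap also stood lower, but a few deep cells held much of it. Its normalised CPM was 1131, 439 and 482 in the normal and 368, 195 and 209 in the food-deprived mice. These do not overlap, as in 4.33% of all genes tested in this direction. The log2 fold change was -1.43 ± 0.39 (SE), and -0.83 without normal replicate 3. edgeR's adjusted p was 0.999, but 0.0235 without the filter on low counts and 0.0231 in the low-Gapdh libraries with the batch block. In normal replicate 3, 125 of 486 Gfap UMIs came from the cell of 34401 UMIs, and in normal replicate 4, 45 of 69 came from a cell of 7024 UMIs. Without the top cell of each mouse, the values were 810, 146 and 357 CPM against 236, 156 and 174 CPM, which overlap. The share of cells with Gfap at 800 UMIs, in the second thinning, was 22.4%, 8.16% and 21.7% against 8.78%, 7.27% and 12.2%, which overlap too, as they did in the first thinning (23.7%, 7.14% and 15.2% against 7.43%, 6.06% and 9.56%; unthinned 31.5%, 11.2% and 28.3% against 13.2%, 12.4% and 18.3%). Aqp4 and Gfap therefore differ in how much rests on single cells.

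The other markers stood slightly higher in food-deprived mice. Slc1a2 held 3112, 3738 and 3014 normalised CPM in normal and 4356, 4031 and 4093 in food-deprived mice (log2 fold change 0.34 ± 0.25 SE). Slc1a3 held 3166, 3458 and 2653 against 3822, 3566 and 4679 (0.38 ± 0.26). For both transporters the groups do not overlap, as in 3.85% of all genes tested in this direction, at differences close to their standard errors. Agt held 3280, 4043 and 2465 against 4043, 6060 and 3884 (0.51 ± 0.29), and the groups overlap. Gja1 differed by 0.14 ± 0.28, within the spread between mice, and its sign turned to -0.01 without normal replicate 5. Of the 12 genes of glutamate uptake and recycling, 9 passed the filter on low counts, 8 stood higher and 1 lower, with a median log2 fold change of 0.37 against -0.00 over all genes tested, and of 0.16 with the batch block. The list includes Glul (glutamine synthetase), which held 1569, 2880 and 1286 against 3113, 3079 and 2480 normalised CPM.

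**Figure D5:**
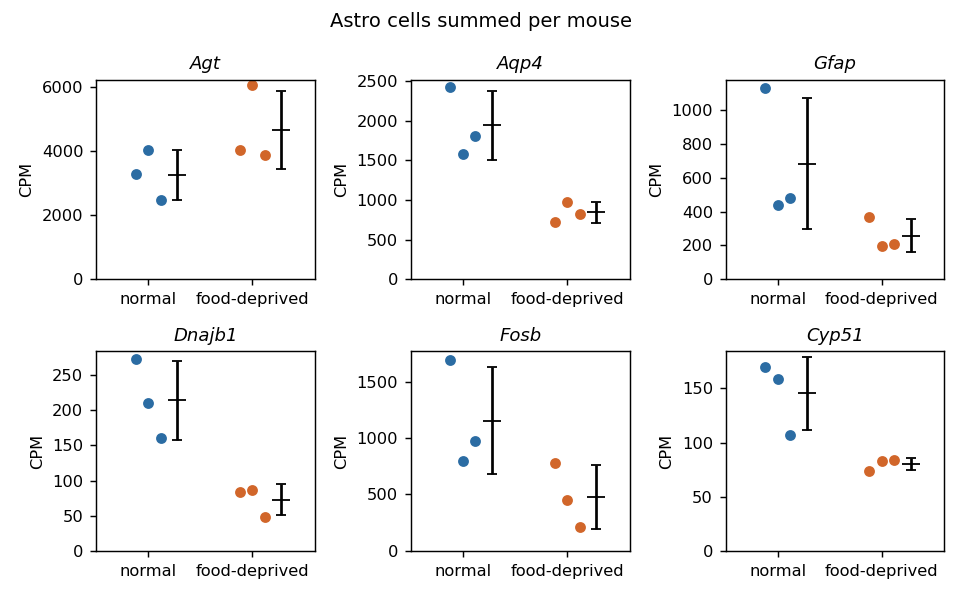
Normalised CPM of 6 genes in Astro cells of each mouse, with the mean ± SD (n = 3 per group) as bars. The groups do not overlap for Aqp4, Gfap, Dnajb1, Fosb and Cyp51, as in 4.33% of all genes tested in this direction, and they overlap for Agt.

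By the unadjusted p, the lowest genes in the food-deprived mice were led by Dnajb1, a co-chaperone induced by heat shock. It held 272, 210 and 161 normalised CPM in normal and 84.1, 87.1 and 47.8 in food-deprived mice, a log2 fold change of -1.54 ± 0.32 (SE). In normal replicate 4, 17 of 33 Dnajb1 UMIs came from a cell of 10884 UMIs. Without the top cell of each mouse, the values were 208.7, 99.9 and 116.9 CPM against 73.4, 50.9 and 41.1 CPM, which do not overlap. The thinned shares of cells, 8.30%, 5.10% and 13.0% against 7.1%, 3.03% and 1.74%, overlap. In Ependy Dnajb1 held 1206, 407 and 185 CPM in normal and 68.8, 148 and 113 CPM in food-deprived mice, without overlap. There 283 of 388 UMIs of normal replicate 3 lay in 1 cell. In Tany it held 307, 316 and 240 CPM against 134, 267 and 212 CPM, with overlap. In Astro the rest of Dnajb1's list stayed closer: of 20 heat shock genes 17 were tested, 13 stood lower and 4 higher, with a median of -0.08. After Dnajb1 and Aqp4 came Emb, an adhesion protein, with 182, 31.8 and 53.6 against 6.31, 10.4 and 35.9 (groups overlap). In normal replicate 3, 27 of 78 Emb UMIs came from the 34401-UMI cell. The retinoid-binding protein gene Rlbp1 held 137, 38.1 and 80.4 against 29.4, 29.0 and 17.9, and was highest in normal replicate 3. The Wnt enhancer Rspo3 held 163, 31.8 and 147 against 14.7, 20.7 and 47.8 (groups overlap), and the cilium gene Ccdc39 72.2, 63.6 and 188 against 21.0, 24.9 and 47.8.

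At the other end, by the unadjusted p, stood genes of 20.2 to 177 normalised CPM on average in the normal mice, from Gm1821 to Pik3ip1. Pik3ip1, a negative regulator of PI3 kinase, held 140, 216 and 174 normalised CPM in normal and 336, 334 and 293 in food-deprived mice (log2 fold change 0.89 ± 0.29 SE). Aldh6a1, an enzyme of valine breakdown, held 83.8, 82.6 and 80.4 against 170, 182 and 108 (0.92 ± 0.31). The groups do not overlap for either. The groups also do not overlap, as in 3.85% of all genes in this direction, for the remaining 6 of the 8 genes of smallest p in this direction, 2310001A20Rik, Zfp281, Cpne6, Gm1821, Fbln5 (fibulin 5) and Psma3 (a proteasome subunit), whose log2 fold changes ran from 1.05 for Fbln5 to 1.59 for Gm1821. Choosing genes by a small p favours such separation.

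Immediate early genes stood lower as a list, by an amount that hung on normal replicate 3. Of 23 genes, 18 passed the filter and all 18 were lower in the food-deprived mice, with a median log2 fold change of -0.68. Over all genes tested, 2937 of 5837 were lower. Among the 18 immediate early genes, 5 had an unadjusted p under 0.05 in edgeR's test (Fosb, Jun, Egr2, Klf4 and Klf6), beside 108 lower genes, 1.85%, of all tested. Fosb, a partner of Jun in AP-1, held 1692, 795 and 978 normalised CPM in normal and 776, 448 and 209 in food-deprived mice, without overlap. It was the only 1 of the 18 with such separation, which 4.33% of all genes tested had in this direction. Jun held 3783, 1634 and 2318 against 1877, 1696 and 956, and Klf6 857, 407 and 509 against 412, 212 and 215, both with overlap. Summed over the list, normal replicate 3 held 22640 CPM, normal replicates 4 and 5 held 8923 and 15200 CPM, and the food-deprived mice held 12910, 10820 and 7535 CPM. Without normal replicate 3 the median was -0.05, with 13 of 17 genes lower, and with the batch block it was -0.35. Without food-deprived replicate 3 it was -0.44.

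Genes of cholesterol synthesis were mostly a little lower. Of 23 genes of the list 17 were tested, 16 stood lower and 1, Sqle, higher, with a median of -0.26, and of -0.51 with the batch block. Cyp51 (lanosterol demethylase) held 170, 159 and 107 normalised CPM in normal and 73.6, 82.9 and 83.7 in food-deprived mice, a log2 fold change of -0.93 ± 0.29 (SE). Mvk (mevalonate kinase) held 69.8, 63.6 and 67.0 against 37.8, 31.1 and 35.9, and Dhcr7, which makes cholesterol in the last step of a branch of the pathway, 102, 108 and 147 against 71.5, 72.6 and 47.8. In these 3 of the 17 the groups do not overlap, as in 4.33% of all genes tested in this direction. In the rest of the list they overlap. The summed list ran from 1590 to 2362 CPM in normal and from 1430 to 1909 CPM in food-deprived mice, so the groups overlap as a sum. With 1 mouse left out the median ran from -0.42 (without food-deprived replicate 2) to -0.10 (without food-deprived replicate 1 or normal replicate 4), and it was -0.14 without normal replicate 3.

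Genes of reactive astrocytes, Gfap among them, were mostly below the filter. Of 26 genes 9 passed the filter and all 9 stood lower, with a median of -0.46, and without normal replicate 3 the median was -0.01 with 5 of 8 lower. It was -0.84 without normal replicate 4 and -0.70 without food-deprived replicate 1. Vim (vimentin) held 582, 63.6 and 201 normalised CPM against 212, 76.7 and 83.7, with overlap, and without normal replicate 3 its log2 fold change was 0.11. Some other lists had medians nearer 0. Fatty acid oxidation and ketone genes had a median of 0.09 (13 of 19 tested higher), and glycogen, glycolysis and lactate genes one of 0.08 (15 of 24 higher). Clock genes had one of -0.06 (8 of 13 lower), which was -0.24 with the batch block. Among markers of other classes, the 2 endothelial genes tested had a median of -1.72 and the 3 ependymal genes tested one of -0.49. Glucocorticoid-induced genes had a median of 0.20, with 12 of 16 higher, and Sult1a1 and Hif3a at an unadjusted p under 0.05. With the batch block that median was -0.01. Fgfr3, a growth factor receptor of astrocytes, held 491, 687 and 348 normalised CPM in normal and 753, 991 and 777 in food-deprived mice (0.71 ± 0.28 SE). The groups do not overlap, as in 3.85% of all genes tested in this direction. Its list, that of hormone and metabolic receptors, which also holds genes that are not receptors, went the other way: of 13 tested, 4 stood higher and 9 lower. The median of that list was -0.12, and -0.01 with the batch block.

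Whether Astro and Tany cells responded differently was tested in 1 fit over both classes of the same 6 mice. Of 7258 genes, 1 passed (0.0138%): Gfap, whose log2 fold change in Astro minus that in Tany was -2.81 ± 0.48 (SE), with an adjusted p of 0.0365 in edgeR. In Tany, Gfap was near its limit of detection, at 29.0, 24.9 and 18.4 CPM in normal (10, 3 and 5 UMIs) and 132, 48.9 and 20.6 CPM in food-deprived mice (50, 15 and 10 UMIs). The highest Tany value thus came from food-deprived replicate 1, in which 24 of 50 UMIs were in 1 cell. DESeq2 did not call it (adjusted p 0.284), nor did edgeR without any one of normal replicates 3, 4 and 5 or food-deprived replicate 1 (adjusted p 0.998, 0.0927, 0.105 and 0.242). For Aqp4 the difference was -1.46 ± 0.37 (SE), with an adjusted p of 0.404. Tany held 66.6, 24.9 and 55.3 CPM of Aqp4 in normal and 71.0, 52.1 and 61.7 CPM in food-deprived mice. Ependy, where Aqp4 is common, held 395, 439 and 652 CPM in normal and 466, 367 and 627 CPM in food-deprived mice, with overlap.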

How the data were processed

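The authors deposited UMI counts for every library, as whole numbers by gene and barcode without normalization, a merged count table of the annotated cells, and 1 cluster name per cell from an SVM column, a categorical value with no unit. Per the submitters' processing notes the genome build is mm9; the aligner is not given in the sources used here. Batch, group and barcode in the cell names traced 14276 annotated cells to their library, whose table held equal counts for each of them; 161 more, with a barcode present in several libraries, were left out. No step for doublets was applied, since the labels name none and the cluster names were taken as deposited.

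Counts were summed per mouse over Astro cells, for mice with at least 20 cells. Groups were compared with edgeR 4.0.16 (R 4.3.3; TMM, filterByExpr by feeding state, quasi-likelihood F test, two-sided, Benjamini-Hochberg over all tested genes at 0.05). Standard errors follow from the F statistic. The difference from Tany was the class by feeding state term with the mouse as block. Shares of cells were compared by exact permutation over 8 mice (56 splits). The fit was checked on simulated counts for 5834 genes, with 2 false calls. Alternatives were DESeq2 1.42.0, other size factors, no filter, batch as block, other cell minimums, library kinds, left-out mice, cells with myelin RNA left out, and, added after seeing the data, thinned cells, no deep cells, shared barcodes, and batches 1 and 2 alone.

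Genes were named by a rule: the 5 markers, members of the gene lists by level or fold change, the 8 genes of smallest unadjusted p per direction, and the leading genes by level, ratio over other classes and spread. Genes named for their cell-by-cell likeness to Agt, Gfap and Fos, for 0 UMIs, and Glul, Insr and Fgfr3 were chosen after their values were seen. The members and lists were chosen with earlier results of these data known. Replicates are separate mice per the labels. Batch pairs the mice in batches 1 and 2 only. Some results are not reported here.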

Additional observations from a re-analysis of the deposited data

Results flagged for a closer look

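Gfap was the 1 gene that passed a test of the difference in response to food deprivation between 2 cell classes of the same mice. Its log2 fold change in Astro minus that in Tany was -2.81 (SE 0.48), and edgeR's adjusted p was 0.0365 over 7258 genes. All 3 food-deprived mice had less Gfap in Astro than any of the 3 normal mice, while in Tany 2 of the 3 food-deprived mice had more than any normal mouse. The Tany side rests on 3 to 50 UMIs per mouse, and the Astro side of normal replicates 3 and 4 partly on 1 cell each. DESeq2 did not call the difference (adjusted p 0.284), and edgeR did not call it without normal replicate 3, 4 or 5 or food-deprived replicate 1 (adjusted p 0.998, 0.0927, 0.105 and 0.242).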

How the results depend on the processing

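The absence of calls in Astro held with the batch as a replicate block (0 calls), with DESeq2, with other size factors, without myelin-carrying cells, and with each mouse left out (0 to 0 calls). Other cell minimums were no separate check. A minimum of 10 cells kept the mice of the main fit, and a minimum of 50 removed only normal replicate 5. Without a filter on low counts 18 genes were called, 2 of them higher, Npvf and Tac2. In the libraries with low Gapdh alone, with batch as a replicate block and 2 mice per group, 8 were called: Cldn11, Mobp, Tubb4a and Grb14 higher, and Emb, Gfap, Lect1 and Dnajb1 lower. The cause was not tested. Batch numbers link only batches 1 and 2. The difference in the share of Astro cells was 4.99 points over named cells and 6.84 over glial and vascular cells, 3.08 to 4.97 with 1 mouse left out, and within-batch pairing gave -1.26 in batch 1, a reversed sign.

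For the difference between Astro and Tany, no filter gave 7 calls, DESeq2 0, and leaving out 1 mouse 0 to 3 calls. The value for Gfap was -2.67 in DESeq2 and -3.18 to -2.33 with 1 mouse left out.

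Over 36 genes named with a fold change, 650 alternative values were computed, and 643 kept their direction. For 33 genes it was kept throughout. Many of these genes were chosen by a small p or with results known, and the alternatives refit largely the same counts. Kept direction was therefore likely from the start, and the share over all genes tested was not computed. Gja1 turned to -0.0149 without normal replicate 5, the mouse that a minimum of 50 cells also removes (-0.0149), and ran to 0.32 with another mouse left out. Vim ran from -1.89 to 0.11 with 1 mouse left out, the latter without normal replicate 3. Slc6a11 (-0.03) ran from -0.27 to 0.37, above 0 without normal replicate 4 or food-deprived replicate 3 (0.12), and was 0.0339 without a filter and 0.0633 in low-Gapdh libraries with the block. The heat shock median ran from -0.38 to 0.0049, the latter without food-deprived replicate 2. Precision is limited by the number of mice and, in normal replicate 5, by 79861 UMIs; intervals and floors cover counting error only.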

Other observations

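Normal replicates 1 and 2, which had too few Astro cells for the tests, gave 1677 CPM of Aqp4 from 11 UMIs in 6 cells (exact Poisson 95% interval 837 to 3000) and 1054 CPM from 11 UMIs in 8 cells (526 to 1886). Agt stood at 3811 CPM (2466 to 5626) and 4505 CPM (3310 to 5990) in these mice. The intervals cover counting error only.

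A few cells named Astro carried large amounts of a neuropeptide RNA. One cell of food-deprived replicate 3 held all 121 Npvf UMIs of that mouse and 61 of its 63 Gal UMIs belonged to a cell of the same depth, 5739 UMIs. In food-deprived replicate 2, a cell of 10366 UMIs held 106 of 107 Tac2 UMIs, and 78 of 82 Gal UMIs lay in a cell of that depth. In normal replicate 4 a cell of 10884 UMIs held 126 of 134 Gal UMIs. Gal in normal replicate 4 was at 784 CPM with that cell and at 49.96 CPM without it.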
